A study of Oryctolagus cuniculus with 17 samples.

Results

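The genes described here handle iron in the cell: the ferritin subunits FTH1 and FTL, the ferritin receptor NCOA4, the uptake genes TFRC, STEAP3, SLC11A2 and SLC39A14, the exporter SLC40A1, and the iron regulatory proteins ACO1 and IREB2. They were taken from the count table by the human symbol that it gives for each rabbit gene, and all 10 symbols had exactly 1 entry among the 13827 entries of the table. RNA-seq was performed on lung homogenates, labelled as right lung (the paper names the right lung in one place and the left in another), of New Zealand White rabbit pups that were delivered preterm on day 28 of gestation (term 31 days), fed a milk replacer and kept at 95% oxygen (hyperoxia, HT) or 21% oxygen (normoxia, NT) until postnatal day 3, 5 or 7. HT3, HT7, NT3, NT5 and NT7 held 3 samples each and HT5 held 2, which makes 8 hyperoxia and 9 normoxia samples. All pups, the normoxia controls included, were preterm and reared in incubators, so no term-born lung was part of the comparison.

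Each of the 17 samples held between 14508362 and 19961087 counts over all entries (13123731 to 18111086 with every locus counted 1 time), and the TMM factors that correct for library composition lay between 0.958 and 1.05. Levels are given as CPM, counts scaled with these factors to the library total over all tested entries, in which a locus listed under several symbols counts for each of them, and changes as the log2 fold change (log2FC) of hyperoxia over normoxia on the same day. A gene was said to have risen or fallen when its adjusted p-value was under 0.05 in edgeR's quasi-likelihood test across all 13142 genes tested. All 10 iron genes passed the count filter. Neither the labels nor the paper give the litter of a pup or a batch, so p-values measure the spread between these samples.

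Cells take up iron bound to transferrin through the transferrin receptor, reduce it in the endosome and move it to the cytosol, and they also import free iron with membrane transporters. Iron that is not used is stored inside ferritin, a shell of heavy and light subunits, and is released again when ferritin is digested. Ferroportin is the known exporter of iron that is not held in haem. When iron is scarce, the iron regulatory proteins bind hairpins in the transcripts of this machinery, which blocks translation of the ferritins and ferroportin and keeps transferrin receptor mRNA from decay. Transcription of ferritin genes also responds to oxidant stress. In the lung, ferritin is known from alveolar macrophages and epithelium as a guard against iron that would otherwise feed oxygen radicals.

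By day 7 in hyperoxia, both ferritin transcripts and 3 of the 4 uptake transcripts had risen and the exporter had fallen. On day 3, none of the 10 genes passed the threshold in edgeR, whereas 1.03% of all genes tested did. Before adjustment, 3 of the 10 (FTH1, FTL and TFRC) had p-values below 0.05, as had 15.3% of all genes. With DESeq2, 2 of them, FTL and TFRC, passed after adjustment on that day, as did 4.05% of the genes it tested. On day 5, 5 genes had risen (FTH1, FTL, TFRC, SLC39A14 and ACO1) and SLC40A1 had fallen, where 15.9% of all genes rose and 15.4% fell (31.3% together). On day 7, STEAP3 joined them, giving 6 that rose and 1 that fell against 23.7% in each direction over all genes (47.4% together). The median log2FC of the 10 genes was 0.30, 0.76 and 1.15 on days 3, 5 and 7, beside 0.00, -0.02 and -0.01 for all genes tested. The study asked more of a DEG, namely a log2FC beyond 2 or -2 together with an adjusted p-value below 0.01. FTL, TFRC and SLC39A14 met this on day 7, as did 4.59% of all genes, and none of the 10 met it on day 5, where 1.58% did. TFRC was under the cut of 2 without NT7 replicate 2 (1.91), and SLC39A14 without HT7 replicate 3 (1.97). All hyperoxia samples lay above all normoxia samples for 5 of the 10 genes on day 3 (12.8% of all genes), 7 on day 5 (26.5%) and 7 on day 7 (27.3%). They lay below for 2 genes, SLC40A1 and NCOA4, on day 5 (29.2% of all genes) and on day 7 (27.2%).

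**Figure D1:**
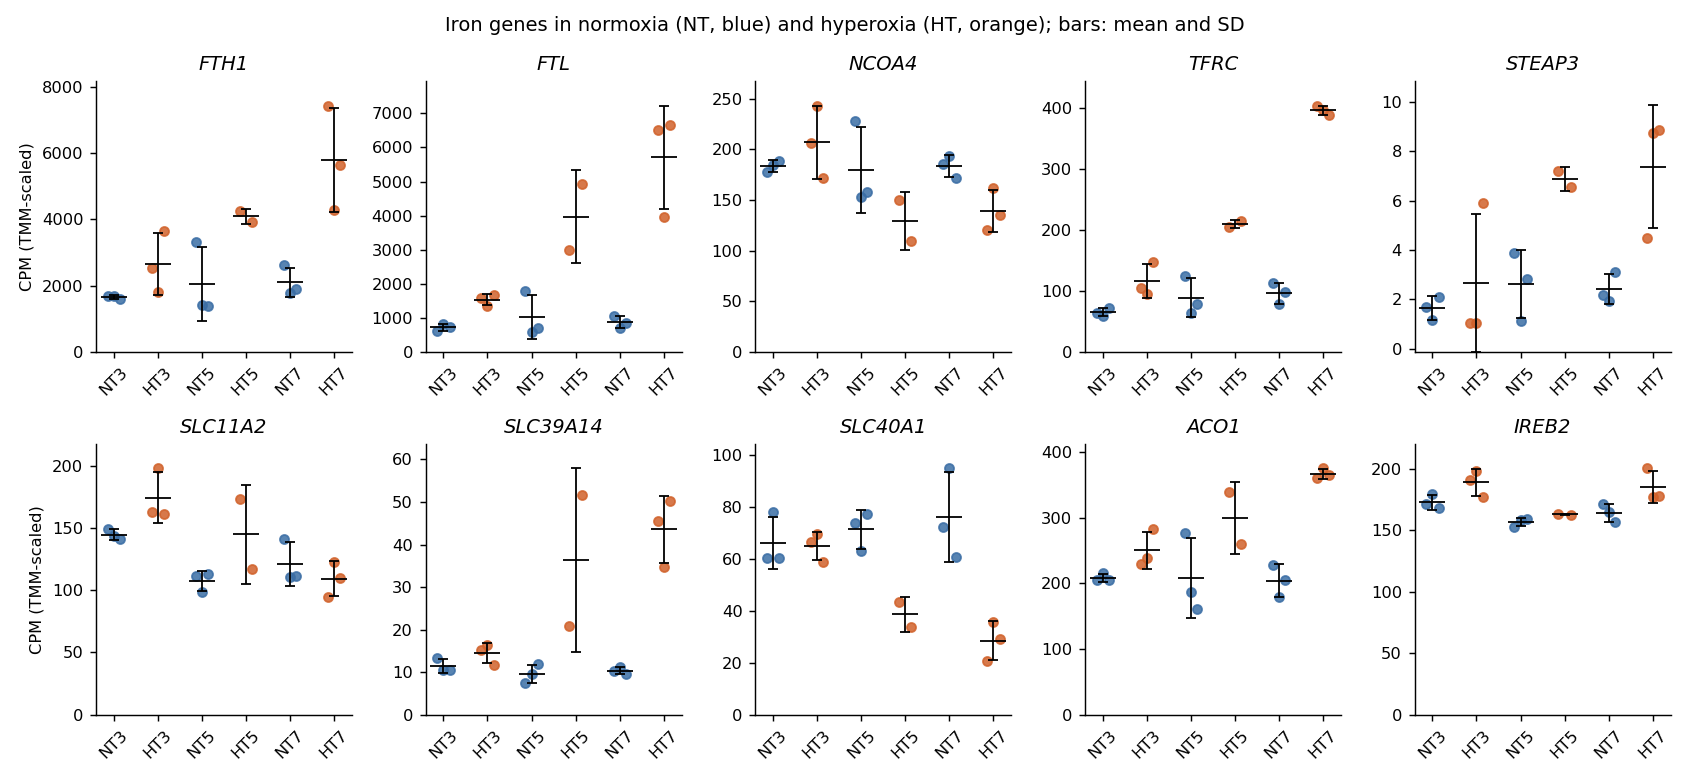
Level of each iron gene in every sample, in CPM on linear axes, with normoxia groups (NT) in blue and hyperoxia groups (HT) in orange, and bars for the mean and SD (n = 3, and 2 for HT5). The TFRC samples of HT7 lie between 388 and 404 CPM, far above all other groups, and the SLC40A1 samples of HT5 and HT7 lie below those of NT5 and NT7.

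FTL encodes the light chain of ferritin, which helps iron to mineralise inside the shell. It is listed on scaffold GL019028 from 86633 to 87840, on the reverse strand (ENSOCUG00000000014). FTL was at 1581, 1355 and 1677 CPM in HT3 replicates 1, 2 and 3 and at 617.9, 819.8 and 737.3 CPM in those of NT3. On day 5 it was at 2997 and 4928 CPM in HT5 and at 1782, 594.7 and 717.9 CPM in NT5. On day 7 it reached 6501, 3953 and 6661 CPM in HT7 against 1054, 707.1 and 863.9 CPM in NT7. On each of these days, every hyperoxia sample lay above every normoxia sample. The log2FC was 1.08 on day 3 (standard error 0.34, adjusted p = 0.145), 1.94 on day 5 (standard error 0.37, adjusted p = 0.00182) and 2.7 on day 7 (standard error 0.36, adjusted p = 4.04e-05), the last being a 6.52-fold difference. On day 7 the log2FC of FTL exceeded that of 98.8% of all genes tested. A fit of the samples of day 3 alone put FTL at an adjusted p-value of 0.0123, and DESeq2 at 0.0312.

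FTH1 encodes the heavy chain, the subunit that oxidises ferrous iron so that it can be stored. Its values in HT3 were 2549, 1800 and 3650 CPM, above those of 1698, 1684 and 1591 CPM in NT3. They were 4245 and 3937 CPM in HT5 and 3333, 1422 and 1385 CPM in NT5. In HT7 they were 7432, 4294 and 5657 CPM, against 2615, 1787 and 1898 CPM in NT7. The groups of a day did not overlap, although NT5 replicate 1 lay close to HT5. The log2FC was 0.69 on day 3 (standard error 0.32, adjusted p = 0.325), 1.0 on day 5 (standard error 0.35, adjusted p = 0.042) and 1.46 on day 7 (standard error 0.32, adjusted p = 0.00192). Without HT3 replicate 3 the day 3 value was 0.39. The call on day 5 was lost when HT5 replicate 1, HT5 replicate 2, NT5 replicate 2 or NT5 replicate 3 was left out (adjusted p-values from 0.116 to 0.148) or only the samples of day 5 were fitted (0.115), and without NT5 replicate 1 the log2FC was 1.54. The locus of FTH1 is listed on scaffold GL018717 from 2710944 to 2796357, forward strand (ENSOCUG00000014108), a span of 85414 bases where the human gene is given 7917. This span overlaps INCENP by 2123 bases and BEST1 by 4361 bases on the other strand, and the counts of these loci came to 0.556% and 0.0087% of those of FTH1.

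The log2FC of the heavy chain was smaller than that of the light chain on each day, a difference that was not tested. The log2 ratio of FTH1 to FTL counts lay between 1.04 and 1.46 in NT3, between 0.9 and 1.26 in NT5 and between 1.14 and 1.34 in NT7. In hyperoxia it was 0.69, 0.41 and 1.12 in HT3, 0.5 and -0.32 in HT5, and 0.19, 0.12 and -0.24 in HT7. All samples of HT5 and HT7 lay below all normoxia samples, and in HT3 2 of the 3 did. The ratio compares the same gene pair between samples and is given as a description, without a test, and it is not a ratio of molecules because transcript length was not taken into account. Together the ferritin genes took between 0.223% and 1.52% of the counts of a sample, the highest share being that of HT7 replicate 1.

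**Figure D2:**
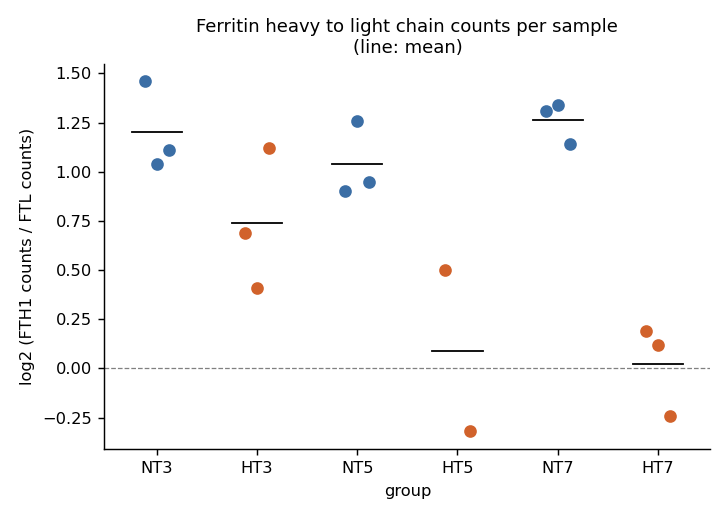
Log2 ratio of FTH1 counts to FTL counts in each sample (vertical axis) by group, with a line at the mean of each group and a dashed line at equal counts. The group means are 1.20, 1.04 and 1.26 in NT3, NT5 and NT7 and fall to 0.74, 0.09 and 0.02 in HT3, HT5 and HT7.

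NCOA4 carries ferritin to the lysosome, where its iron is set free. It was at 206.5, 243 and 171.2 CPM in HT3 and at 177.2, 184.9 and 188 CPM in NT3, with overlapping groups. It was lower in hyperoxia on day 5, at 149.8 and 109.4 CPM against 227.9, 152.8 and 158 CPM, and on day 7, at 120.7, 161.7 and 135.3 CPM against 185.9, 193.2 and 172.1 CPM. Neither difference passed the threshold: the log2FC was -0.47 on day 5 (standard error 0.19, adjusted p = 0.0754) and -0.40 on day 7 (standard error 0.17, adjusted p = 0.0667), although the groups did not overlap on either day. Without HT7 replicate 2, the day 7 value was -0.51 with an adjusted p-value of 0.0322, and without HT5 replicate 1 the day 5 value was -0.72 with 0.0334. With the replicate number as a block, both passed (-0.54 and -0.41, adjusted p = 0.0296 and 0.0221), although the labels do not say that equal numbers pair samples. The day 5 value was smaller without HT5 replicate 2 (-0.28, adjusted p = 0.477) and without NT5 replicate 1 (-0.26, adjusted p = 0.275).

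TFRC encodes the transferrin receptor, the main gate for iron bound to transferrin, and is listed on chromosome 14 from 92659143 to 92673260, forward strand (ENSOCUG00000017033). Its levels were 104.9, 95.82 and 148.4 CPM in HT3 and 64.08, 59.81 and 73.05 CPM in NT3. On day 5 they were 205.8 and 215.3 CPM in HT5 and 125.2, 63.97 and 78.24 CPM in NT5. On day 7 they were 403.5, 397.8 and 388.2 CPM in HT7 and 113.5, 78.93 and 98 CPM in NT7. The samples of HT7 differed little from each other (397 CPM ± 7.74, SD, n = 3) and stood above every other sample of the series. The log2FC was 0.83 on day 3 (standard error 0.22, adjusted p = 0.0863), 1.24 on day 5 (standard error 0.24, adjusted p = 0.00164) and 2.03 on day 7 (standard error 0.22, adjusted p = 8.17e-06), a 4.10-fold difference. With DESeq2, day 3 also passed (adjusted p = 0.0112). TFRC and the ferritin genes, which the iron regulatory proteins are known to move in opposite directions after transcription, both rose here at the level of RNA.

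SLC39A14 encodes ZIP14, a carrier of iron, zinc and manganese that takes up iron not bound to transferrin. It was low in normoxia, with 7.452 to 13.44 CPM over the 9 samples. HT3 samples held 15.2, 16.5 and 11.79 CPM and overlapped with NT3. HT5 samples held 20.97 and 51.56 CPM, and HT7 samples 45.57, 34.83 and 50.3 CPM, all above the normoxia samples of every day. The log2FC was 0.34 on day 3 (standard error 0.27, adjusted p = 0.591), 1.92 on day 5 (standard error 0.30, adjusted p = 0.000499) and 2.07 on day 7 (standard error 0.28, adjusted p = 4.52e-05). The HT5 samples differed widely, and without HT5 replicate 2 the day 5 value was 1.11 (adjusted p = 0.022).

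STEAP3 encodes the endosomal reductase that acts on iron brought in by the transferrin receptor. It was scarce, with 18 to 173 counts per sample. On day 7 it was at 4.499, 8.768 and 8.862 CPM in HT7 and at 2.187, 1.956 and 3.115 CPM in NT7, so the groups did not overlap. The log2FC was 1.60 (standard error 0.58, adjusted p = 0.0336). This call was lost without HT7 replicate 2, HT7 replicate 3, NT7 replicate 1 or NT7 replicate 2 (adjusted p-values from 0.0704 to 0.103). On day 5 the value was 1.39 (standard error 0.62, adjusted p = 0.102) with both HT5 samples above NT5. On day 3, 1.065, 1.052 and 5.894 CPM in HT3 stood beside 1.68, 1.159 and 2.105 CPM in NT3, and the log2FC of 0.70 turned to -0.63 without HT3 replicate 3.

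SLC11A2 encodes DMT1, which moves ferrous iron out of the endosome or into the cell. Its differences between hyperoxia and normoxia did not pass on any day. The log2FC was 0.27 on day 3 (standard error 0.15, adjusted p = 0.413), 0.43 on day 5 (standard error 0.16, adjusted p = 0.0599) and -0.15 on day 7 (standard error 0.15, adjusted p = 0.438). Levels were 163.1, 197.8 and 161.5 CPM in HT3, above 149.1, 143.9 and 141.1 CPM in NT3. By day 7 they overlapped, with 94.71, 122.6 and 110.1 CPM in HT7 and 141.1, 110.2 and 111.3 CPM in NT7. On day 5, DESeq2 placed SLC11A2 under the threshold (adjusted p = 0.0436), as did edgeR without HT5 replicate 2 (log2FC 0.67, 0.031). Without HT5 replicate 1 the log2FC was 0.12 (adjusted p = 0.642).

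SLC40A1 encodes ferroportin, the known exporter of iron that is not held in haem, and was the gene of the group that fell. It is listed on chromosome 7 from 129932046 to 129998929, on the reverse strand (ENSOCUG00000004826). On day 3, HT3 samples with 66.24, 69.56 and 58.88 CPM overlapped with NT3 samples with 60.1, 77.75 and 60.19 CPM, and the log2FC was -0.02 (standard error 0.19, adjusted p = 0.971). By day 5 the samples were at 43.38 and 33.71 CPM in HT5 against 73.74, 62.82 and 77.31 CPM in NT5. On day 7 it was at 20.71, 35.74 and 29.04 CPM in HT7 against 72.25, 94.71 and 60.74 CPM in NT7. On these later days, all hyperoxia samples lay below all normoxia samples. The log2FC was -0.89 on day 5 (standard error 0.22, adjusted p = 0.00862) and -1.41 on day 7 (standard error 0.20, adjusted p = 6.37e-05), so that the HT7 level was 0.375 of that in NT7. The day 5 call was lost without HT5 replicate 2 (log2FC -0.73, adjusted p = 0.124). In a whole lung homogenate, fewer cells that express a gene and less RNA per cell cannot be told apart.

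ACO1 encodes iron regulatory protein 1, which serves as a cytosolic aconitase when it holds an iron-sulphur cluster and binds RNA when it does not. It was at 230.4, 239.2 and 282.5 CPM in HT3 and 205.2, 216.2 and 204.8 CPM in NT3. On day 5, HT5 samples (338.8 and 260.5 CPM) overlapped with NT5 samples (277, 186.6 and 161.6 CPM). On day 7, HT7 samples at 360, 375.4 and 365.2 CPM stood above NT7 samples at 228.6, 179.2 and 205.8 CPM. The log2FC was 0.26 on day 3 (standard error 0.17, adjusted p = 0.472), 0.52 on day 5 (standard error 0.18, adjusted p = 0.0423) and 0.84 on day 7 (standard error 0.17, adjusted p = 0.000876). The call on day 5 was lost without HT5 replicate 1, HT5 replicate 2, NT5 replicate 2 or NT5 replicate 3, where the adjusted p-value ran from 0.0648 to 0.288, and in a fit of the samples of day 5 alone (0.166).

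IREB2 encodes iron regulatory protein 2, whose activity is set mainly by degradation of the protein when iron is plentiful. It varied least of the 10 genes, with 152.9 to 200.2 CPM over all 17 samples. The log2FC was 0.13 on day 3 (standard error 0.08, adjusted p = 0.466), 0.05 on day 5 (standard error 0.09, adjusted p = 0.677) and 0.17 on day 7 (standard error 0.08, adjusted p = 0.0867). The day 7 samples did not overlap, at 200.2, 177.2 and 177.9 CPM in HT7 and 170.9, 164.5 and 156.7 CPM in NT7, but the difference was of 1.13-fold only.

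**Figure D3:**
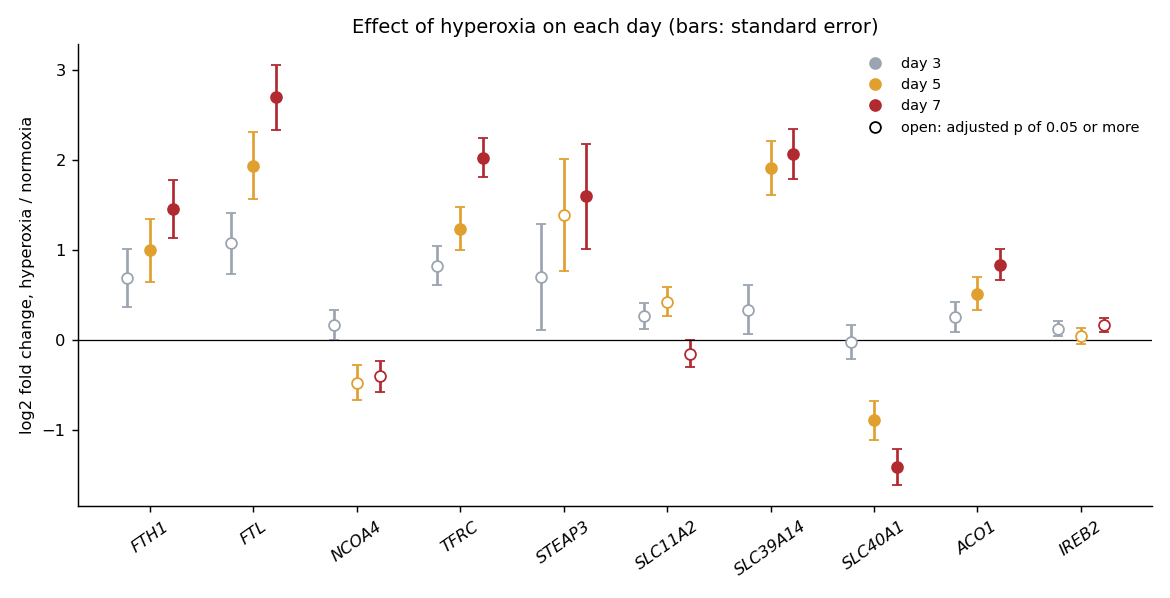
Log2 fold change of hyperoxia over normoxia (vertical axis) for each iron gene on days 3, 5 and 7, with bars for the standard error and filled points for an adjusted p-value under 0.05. FTL rises from 1.08 to 2.7 and TFRC from 0.83 to 2.03, SLC40A1 falls from -0.02 to -1.41, and IREB2 stays between 0.05 and 0.17.

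Whether the effect of hyperoxia changed with time was tested as the difference between the day 7 and day 3 effects. It passed for 4 of the 10 genes, 3 with a larger and 1 with a more negative value, where 20.5% of all genes tested passed (9.52% positive and 11% negative). None of the 4 met the DEG thresholds of the study for this difference, as 1.56% of all genes did. The effect was larger on day 7 by 1.62 on the log2 scale for FTL (standard error 0.48, adjusted p = 0.0289), by 1.21 for TFRC (standard error 0.30, adjusted p = 0.0134) and by 1.73 for SLC39A14 (standard error 0.39, adjusted p = 0.00772). For SLC40A1 the difference was -1.39 (standard error 0.28, adjusted p = 0.00463). When 1 of the 12 samples was dropped at a time, the difference of FTL passed 4 times of 12, with adjusted p-values up to 0.0729, and those of TFRC, SLC39A14 and SLC40A1 passed 12 times. FTH1 had a difference of 0.78 (standard error 0.45, adjusted p = 0.235), ACO1 of 0.58 (standard error 0.24, adjusted p = 0.0954) and NCOA4 of -0.57 (standard error 0.24, adjusted p = 0.105). With the replicate number as a block on all days, those of ACO1 (0.59, adjusted p = 0.0324) and NCOA4 (-0.57, 0.0481) passed, as did 19.6% of all genes. The labels do not say that equal replicate numbers pair samples. The difference of NCOA4 also passed without HT7 replicate 2 (-0.69, 0.0483). Between days 5 and 3, no difference passed in edgeR (1.46% of all genes did), and 3 of the 10 had p-values below 0.05 before adjustment (20.3% of all genes), while DESeq2 passed SLC39A14 alone, for which edgeR gave 1.58 (standard error 0.40, adjusted p = 0.0636).

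Between NT3 and NT7 none of the 10 genes passed in edgeR, where 0% of all genes did, or in DESeq2, where 0.306% did. Before adjustment, 1 of the 10 (TFRC, log2FC 0.56, standard error 0.22) had a p-value below 0.05 in edgeR, beside 6.27% of all genes. Within hyperoxia, 8 of the 10 differed between HT3 and HT7, where 44.3% of all genes did (22.3% higher and 22% lower in HT7), and none met the DEG thresholds of the study (3.52% of all genes). FTL (1.89), TFRC (1.77), SLC39A14 (1.59), FTH1 (1.12) and ACO1 (0.55) rose over these days on the log2 scale, and SLC40A1 (-1.19), SLC11A2 (-0.67) and NCOA4 (-0.57) fell. Without HT3 replicate 2, 5 of the 10 passed (35.5% of all genes), which did not include FTH1, ACO1 and NCOA4. FTH1 and NCOA4 were also lost without HT7 replicate 1, ACO1 without HT3 replicate 1, and SLC11A2 with the replicate block, under which 32.1% of all genes passed. SLC11A2 and NCOA4 thus fell with time in hyperoxia although neither passed against normoxia on day 7. From NT3 to NT7, SLC11A2 had a log2FC of -0.26 (standard error 0.15, adjusted p = 0.867). Its day 7 effect minus its day 3 effect was -0.41 (standard error 0.21, adjusted p = 0.175). These comparisons share the HT3, HT7, NT3 and NT7 samples with those given above.

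NT5 replicate 1 stood apart from the other normoxia samples in this group of genes. It had the highest normoxia level of FTH1, FTL, TFRC, STEAP3, ACO1 and NCOA4, and its summed level of 11 macrophage markers was 1030 CPM, the highest of all samples, where NT5 replicates 2 and 3 had 404.7 and 354.3 CPM. Without it, the day 5 log2FC was 2.59 for FTL, 1.57 for TFRC and 0.78 for ACO1.

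Macrophages, neutrophils and erythroid cells carry much iron or ferritin, and their marker lists were therefore read beside these genes. The 11 macrophage markers with a locus of their own summed to 557.7 to 909 CPM in HT7 and to 609 to 770.1 CPM in NT7, so the groups overlapped. On day 7, 2 of the 11 rose (CD163 and MSR1) and 1 fell (MARCO), where 23.7% of all genes went each way. CD68 was left out of this sum because its locus and counts are shared with EIF4A1, a translation factor gene. That locus rose on day 5 (log2FC 0.86, adjusted p = 0.00562) and day 7 (1.21, adjusted p = 0.000119), and with it the sums of 12 markers were 2088 to 2722 CPM in HT7 and 1284 to 1538 CPM in NT7, without overlap. On day 3 the sums were 515.2 to 767.2 CPM in HT3, above those of 401 to 464.2 CPM in NT3, with none of the 11 past the threshold. On day 5 they were 980.5 and 521.4 CPM in HT5 and 354.3 to 1030 CPM in NT5. On that day 1 of the 11 rose, CD163 (log2FC 2.12, adjusted p = 0.0116), where 15.9% of all genes rose. The sum of 10 neutrophil markers was 1234 to 1899 CPM in HT3 against 320.9 to 831.8 CPM in NT3, on day 5 743.3 and 1086 CPM in HT5 against 163.1 to 762 CPM in NT5, and on day 7 1146 to 3594 CPM in HT7 and 1093 to 1211 CPM in NT7, with overlap on the later days. Of the 9 tested, CXCR2 and CSF3R rose on day 5, where 15.9% of all genes rose. On day 7, CXCR2 and MMP9 rose and MPO fell, where 23.7% of all genes went each way. None of the summed macrophage or neutrophil markers was at 0 in all samples. The part of these cells in the differences of FTH1 and FTL was not tested.

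Of 18 listed erythroid markers, 8 were in the table, with no globin among them. They summed to 61.4 to 80.5 CPM in HT7 and to 138 to 251 CPM in NT7. On day 7, 6 of the 8 were called lower, where 23.7% of all genes were. GATA1 and AHSP were not (log2FC -0.61 and -0.52, adjusted p = 0.458 and 0.272). ALAS2 was the largest part of the sum, with 35 to 51.7 CPM in HT7 and 99.7 to 160 CPM in NT7. TFRC, which erythroid precursors express strongly, was higher in the HT7 samples. Proliferating cells also carry much transferrin receptor. The sum of 17 proliferation markers lay below normoxia in HT3 (255 to 276 CPM against 339 to 491) and in HT5 (341 and 678 CPM against 955 to 1120), and overlapped on day 7 (444 to 781 CPM against 333 to 964). The part of these cells in the level of TFRC was not tested. Beside the lower SLC40A1, the summed endothelial and alveolar type 1 markers were lower on day 5 and day 7. In HT5 the former came to 1280 to 1370 CPM against 2190 to 2740 and the latter to 1650 to 2410 CPM against 3400 to 4370, with 5 of 8 and 5 of 7 tested markers called lower (15.4% of all genes) and 1 endothelial marker higher. In HT7, 6 of 8 and 5 of 7 were called lower (23.7% of all genes), the former with 928 to 1300 CPM against 2340 to 2750 and the latter with 1440 to 1640 CPM against 3890 to 4010. Whether these cells had a part in the fall of SLC40A1 was not tested. The summed alveolar type 2 markers, with 10100 to 24400 CPM in HT7 and 13200 to 18100 CPM in NT7, overlapped. Of the 7 tested, SFTPA1 rose on day 7 (log2FC 1.17, adjusted p = 0.0229). SLC34A2 (-1.51, 0.0268) and NAPSA (-1.49, 0.00658) fell, where 23.7% of all genes went each way.

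Further iron genes were taken from 4 lists of 79 genes, of which 60 were in the table and all 60 were tested. On day 3, 1 of them passed, BLVRB (1.67%, where 1.03% of all genes did), and none passed in any of the 6 fits without 1 sample of that day. On day 5, 13 rose (21.7%) and 8 fell (13.3%), and on day 7, 18 rose (30%) and 10 fell (16.7%), shares that are to be read against 15.9% and 15.4% of all genes on day 5 and 23.7% in each direction on day 7. Without 1 sample of day 5, the 21 of that day became 8 to 17, with 8 without HT5 replicate 2 (where 8.65% of all genes passed), 10 without NT5 replicate 2 (23.6%) and 11 without HT5 replicate 1 (32%). The median log2FC of the 60 genes was 0.09, 0.14 and 0.07 on the 3 days. The iron genes outside the core group thus went both ways.

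Among 19 genes of iron transport and storage, 7 rose (36.8%) and 4 fell (21.1%) on day 7, where 23.7% of all genes went each way. The STEAP metalloreductases, relatives of STEAP3, are grouped here after their values were seen. STEAP1 was at 15.4 to 82.1 CPM in HT7 and at 4.65 to 5.73 CPM in NT7 (log2FC 3.08, standard error 0.45, adjusted p = 8.35e-05, and 2.26 without HT7 replicate 1). STEAP2 was at 4.96 to 17.8 CPM against 0.405 to 1.18 CPM (log2FC 4.09, standard error 0.60, adjusted p = 8.25e-05), the largest change of the 60 genes. STEAP4 rose on day 5 (log2FC 1.62, adjusted p = 0.00526) and on day 7, from 68 to 96.9 CPM in NT7 to 145 to 329 CPM in HT7 (log2FC 1.61, standard error 0.35, adjusted p = 0.00156). STEAP1 and STEAP2 did not pass on day 5, with log2FC values of 0.95 and 1.25 (adjusted p = 0.144 and 0.142), and their effect differed between days 7 and 3 (adjusted p = 0.00922 and 0.00725). CYBRD1, the duodenal cytochrome b reductase that supplies ferrous iron at the cell surface, went the other way, from 194 to 239 CPM in NT7 to 76.4 to 106 CPM in HT7 (log2FC -1.27, standard error 0.16, adjusted p = 3.21e-05).

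SLC39A8, which encodes ZIP8, the closest relative of ZIP14, rose together with SLC39A14 on day 5 (log2FC 1.24, standard error 0.24, adjusted p = 0.00166) and day 7 (log2FC 1.18, standard error 0.22, adjusted p = 0.000486). FLVCR1, a haem exporter, had log2FC values of 0.74 and 0.87 on these days (adjusted p = 0.00132 and 6.79e-05), but shares its locus and counts with VASH2. SLC22A17, a receptor for the iron-binding protein lipocalin 2, fell by 0.73 and 1.06 on the log2 scale (adjusted p = 0.00725 and 9.6e-05), and the day 5 call was lost without HT5 replicate 2 (adjusted p = 0.0687). That call was also lost in a fit of the samples of day 5 alone (adjusted p = 0.053). The ferroxidases that work with ferroportin are CP and HEPH, named here after their values were seen. CP had a log2FC of 1.08 on day 5 (adjusted p = 0.0189), with 0.70 (adjusted p = 0.175) without HT5 replicate 1 and 0.94 (0.0676) without NT5 replicate 2, and of 0.73 on day 7 (adjusted p = 0.0517). The day 7 value passed without NT7 replicate 1 (adjusted p = 0.0489), with DESeq2 (0.028) and with the samples of day 7 alone (0.00741). HEPH had -1.03 on day 7 (adjusted p = 0.0721), and passed without HT7 replicate 2 (-1.62, 0.00973) or NT7 replicate 2 (-1.33, 0.0305).

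In the list of iron regulation, 10 of 13 genes were tested, and 3 fell (30%, where 23.7% of all genes fell) and none rose on day 7. The 3 were NEO1, a partner of haemojuvelin in the control of hepcidin (log2FC -0.80, adjusted p = 0.000906), EPAS1 (-0.92, adjusted p = 0.00159) and the signalling inhibitor SMAD7 (-0.56, adjusted p = 0.0146, and 0.0501 and 0.0681 without HT7 replicate 3 or NT7 replicate 1). EPAS1 encodes HIF-2α, an oxygen-sensitive transcription factor whose own mRNA carries an iron-responsive hairpin. On day 5, 1 gene rose (10%) and 3 fell (30%), where 15.9% and 15.4% of all genes did. They were BMP2 (log2FC 0.90, adjusted p = 0.0414), BMP6 (-0.83, 0.0339), NEO1 (-0.57, 0.0281) and SMAD7 (-0.55, 0.0466), and each of these calls was lost in 4 of the 5 fits without a sample of that day. BMP2 was at 0.49 (adjusted p = 0.343) without HT5 replicate 1, and the adjusted p-values reached 0.224 for BMP6 and 0.114 for NEO1 without HT5 replicate 2, and 0.188 for SMAD7 without HT5 replicate 1. FBXL5, the iron sensor that tags IREB2 for degradation, had log2FC values of 0.13, 0.21 and 0.03, with adjusted p-values from 0.269 to 0.847.

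In haem metabolism, all 13 listed genes were tested, and 3 rose and 3 fell on day 7 (23.1% each, where 23.7% of all genes went each way). HMOX1, the inducible haem oxygenase that frees iron from haem, was at 119 to 421 CPM in HT7 and at 67.9 to 84.7 CPM in NT7 (log2FC 1.91, standard error 0.39, adjusted p = 0.00111). HMOX2 rose on days 5 and 7 (log2FC 0.54 and 0.79, adjusted p = 0.0169 and 0.000387), the day 5 call being lost without HT5 replicate 2, NT5 replicate 2 or NT5 replicate 3 (adjusted p up to 0.146). BLVRB, which works on the products of haem breakdown, rose on all 3 days, by 0.54, 0.49 and 0.78 on the log2 scale (adjusted p = 0.0429, 0.0112 and 0.000107), and on day 3 the call was lost with the replicate number as a block (adjusted p = 0.0717) and without any 1 of the 6 samples of that day. Without HT5 replicate 1 its day 5 value was 0.29 (adjusted p = 0.145). Of haem synthesis, ALAS2, the erythroid form of its first enzyme, fell by 1.03 on day 5 and by 1.61 on day 7 on the log2 scale (adjusted p = 0.0345 and 0.00062). The day 5 call was lost without HT5 replicate 1, HT5 replicate 2 or NT5 replicate 3 (adjusted p-values from 0.0591 to 0.233). UROD had -0.47 on day 5 (adjusted p = 0.0274), which was lost in 4 of the 5 fits without a sample (adjusted p up to 0.253 without HT5 replicate 2). On day 7 it had -0.37 (adjusted p = 0.0318), which was lost without HT7 replicate 3 (-0.24, adjusted p = 0.163), NT7 replicate 2 (0.091) or NT7 replicate 3 (0.0975), and with the samples of day 7 alone (0.0756). ALAS1, the form found in all tissues, had -0.35 on day 7 (adjusted p = 0.0841).

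Of 18 tested genes of iron-sulphur cluster assembly, 8 rose (44.4%, where 23.7% of all genes rose) and none fell on day 7, and 4 rose on day 5 (22.2%, where 15.9% did). The mitochondrial chaperone gene HSPA9 rose most, from 112 to 143 CPM in NT7 to 380 to 607 CPM in HT7 (log2FC 2.02, standard error 0.23, adjusted p = 1.02e-05), with 1.79 on day 5. CIAPIN1 (0.84) and NUBP1 (0.76), both of the cytosolic assembly machinery, rose on day 7, as did CISD1 (0.68), a protein of the outer mitochondrial membrane. On day 5, NUBP1 (0.43, adjusted p = 0.0399) was lost in 4 of the 5 fits without a sample, with 0.29 (0.245) without HT5 replicate 1, and CISD1 (0.65, adjusted p = 0.00461) was lost without HT5 replicate 1 (0.47, 0.0521). MMS19 had a log2FC of 0.37 on day 5 (adjusted p = 0.038), a call lost in 4 of the 5 fits without a sample, with 0.18 (adjusted p = 0.469) without HT5 replicate 2, and rose by 0.42 on day 7 (adjusted p = 0.00682), where it passed in all 6 fits without a sample. ISCU, the scaffold on which clusters are built, had a log2FC of -0.22 on day 7 (adjusted p = 0.0849), which passed at -0.30 without HT7 replicate 1 (0.0398) or NT7 replicate 3 (0.0403).

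**Figure D4:**
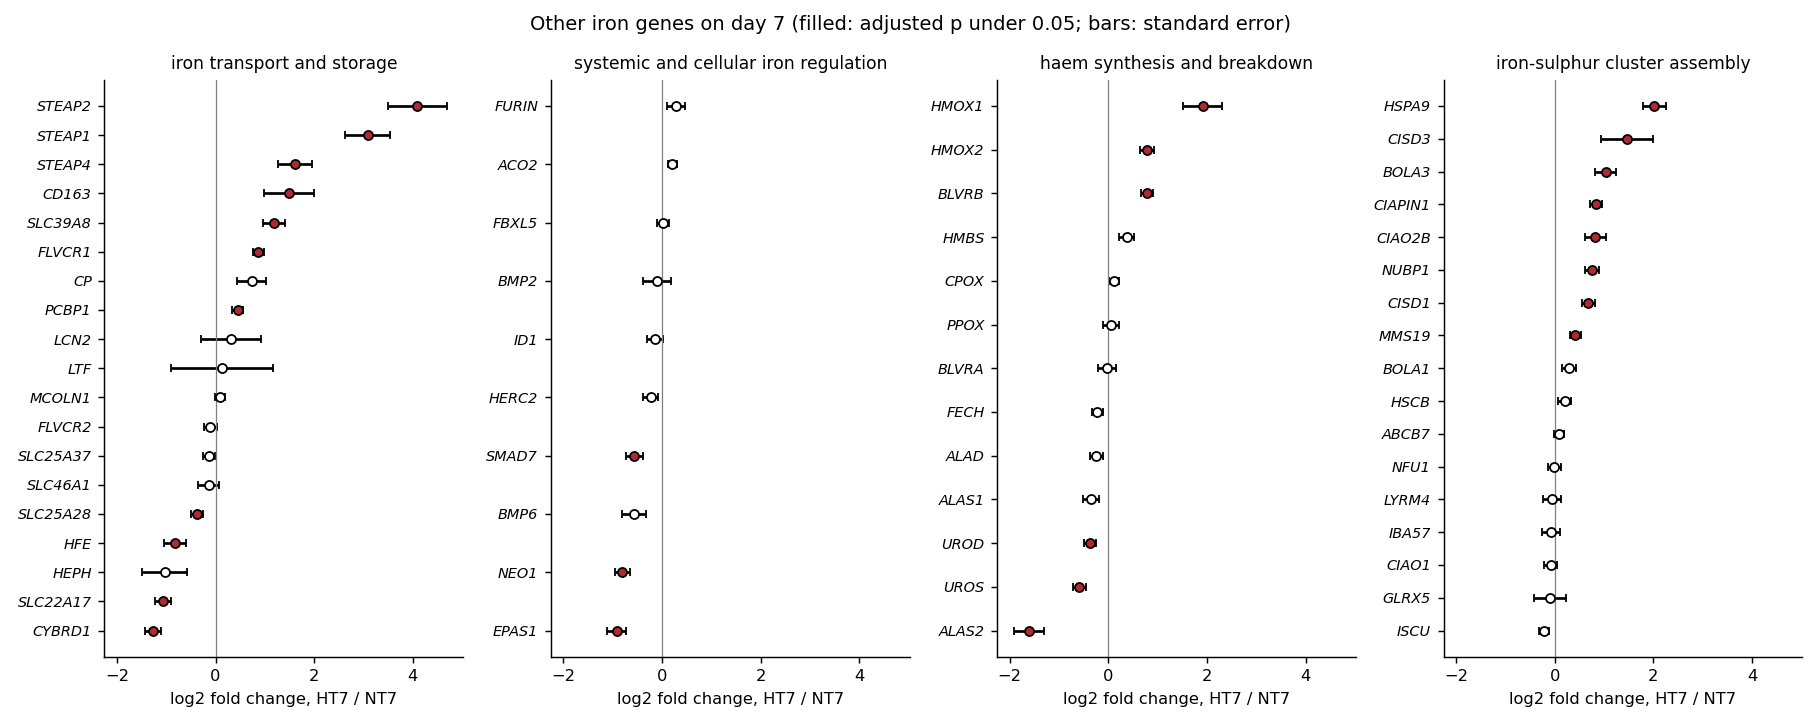
Log2 fold change of HT7 over NT7 (horizontal axes) for the further iron genes in 4 lists, 1 of the 60 not being drawn, with bars for the standard error and filled points for an adjusted p-value under 0.05. STEAP2 (4.09) and STEAP1 (3.08) lie farthest to the right and ALAS2 (-1.61) farthest to the left, and the filled points of iron-sulphur cluster assembly all lie above 0.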

How the data were processed

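Stranded poly(A) libraries of 17 lungs were read from both ends, and raw counts per locus, without normalization, were deposited by the authors. The submitters' processing notes name STAR 2.7.10a and the build OryCun2.0, whose coordinates are used here. The counting program, and whether it used strand, are not given in the sources used here. Loci carry labels of the form that StringTie writes. A locus with several genes is listed for each of them with the same counts, which concerned none of the 10 iron genes. 44 entries carry no gene name.

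Counts were filtered with filterByExpr (13142 genes tested, 685 not tested), scaled with TMM and fitted with 6 group means in 1 quasi-likelihood model of edgeR 4.0.16 (R 4.3.3, prior count 0.125), so that HT5 with 2 samples shared the spread estimated over all 6. The Benjamini-Hochberg adjustment covered every gene in the test. The standard error was taken as the log2FC divided by the square root of the F statistic. DESeq2 1.42.0, the tool of the study, was an alternative, together with RLE factors, no filter, 1 entry per locus, a prior count of 2, samples of a day alone, a replicate block, the study's DEG thresholds and each sample left out. Figures were made with Python 3.11.15 and matplotlib 3.10.9. On simulated counts, edgeR at an adjusted p-value of 0.05 recovered 49%, 50.5% and 61.2% of genes changed by 1 on the log2 scale on days 3, 5 and 7, with 8, 1 and 13 other calls. The simulation changed far fewer genes than were called on days 5 and 7, and used the same baseline for all groups. These shares therefore do not measure recovery on each day of the data.

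The members and lists were chosen with earlier results of these data known. The genes named are the 10 iron genes and, per further list and day, up to 4 genes with the smallest adjusted p-value under 0.05, and others were named for their role after their values were seen. Deviations from the group means of samples with the same replicate number correlated by 0.166, 0.131 and 0.199 on day 3, 0.264 and 0.141 on day 5, and 0.174, 0.109 and 0.0695 on day 7. The main fit treated no day as paired, and the labels do not say that equal numbers pair samples. The block was an alternative fit with replicate terms on all days. Its value is printed beside a call that it changes on day 3 or for a comparison with day 3. The macrophage sum with CD68 was added after seeing the data. The value of 1 gene of the further lists is not reported here.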

Additional observations from a re-analysis of the deposited data

Results flagged for a closer look

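For 4 of the 10 iron genes, the test of the difference itself showed that the effect of hyperoxia was not the same on days 7 and 3. The difference between the effects was 1.62 on the log2 scale for FTL (adjusted p = 0.0289), 1.21 for TFRC (adjusted p = 0.0134), 1.73 for SLC39A14 (adjusted p = 0.00772) and -1.39 for SLC40A1 (adjusted p = 0.00463). Over all genes tested, 20.5% had such a difference. That of FTL passed in only 4 of the 12 fits without 1 sample, with adjusted p-values up to 0.0729.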

How the results depend on the processing

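No alternative run changed the direction of any of the 10 iron genes, or of a further gene recomputed for that day, that had passed on day 5 or 7. With the study's DEG thresholds, 0 of the 10 iron genes passed on day 5 (1.58% of all genes) and 3 on day 7 (4.59%). For the difference of day 7 and day 3 it was 0 (1.56%), and between HT3 and HT7 also 0 (3.52%). Of the 60 further iron genes, 0, 0 and 3 passed on days 3, 5 and 7. Over all 13142 genes, 7 passed on day 3. With DESeq2, 2 iron genes and 2 further genes passed on day 3 (4.05% of all genes), and 1 iron gene for the difference of days 5 and 3 (6.82%). Samples of day 3 alone gave 1 iron gene (2.25% of all genes), and samples of day 5 alone 4 iron genes, without FTH1 and ACO1, and 13 further genes (19%). With the replicate block, 0 further genes passed on day 3. On days 5 and 7 the block gave 5 and 8 iron genes (25.4% and 47.3% of all genes), NCOA4 among them on both days. Leaving out 1 sample at a time, the number of iron genes that passed was 0 on day 3 (0.236% to 0.883% of all genes), 4 to 6 on day 5 (8.65% to 32%), 6 to 7 on day 7 (39.5% to 50.4%), 3 to 5 for the difference of days 7 and 3 (13% to 29%), 0 to 1 for that of days 5 and 3 (0.0149% to 10.7%), and 5 to 9 between HT3 and HT7 (35.5% to 47.5%). For the further genes it was 0 on day 3 and 8 to 17 on day 5. Some differences that had not passed changed sign: SLC40A1 on day 3 ran from -0.09 to 0.11, STEAP3 on day 3 from -0.63 to 1.08, the IREB2 difference of days 7 and 3 from -0.01 to 0.08, and FBXL5 on day 7 from -0.04 to 0.16, with -0.02 without HT7 replicate 2. With the block, the day 5 calls of FTH1 (adjusted p = 0.0518), ACO1 (0.0698), SLC22A17 (0.0625), ALAS2 (0.199), UROD (0.0844), BMP2 (0.0891), MMS19 (0.119) and CP (0.0627) and the day 7 call of UROD (0.0664) were lost. Alternatives for the further genes named outside the rule were chosen after seeing the data. RLE factors, no count filter and 1 entry per locus moved no count by more than 1.5 times. The cause of these changes was not tested. Among the 10 iron genes, depth limits STEAP3 most, with 18 counts in its lowest sample. Of the further genes, STEAP2 was scarcer, with 0.151 CPM in its lowest NT3 sample.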

Other observations

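The genes whose log2 CPM followed the iron genes most closely over the 17 samples were read as a description, with Pearson's r. All points share the contrast of hyperoxia and normoxia, so genes that respond to it share part of their pattern. CTSV, a lysosomal protease gene, was among the 3 nearest genes of FTH1 (r = 0.961), TFRC (0.973) and ACO1 (0.958). The nearest gene of FTH1 was RNF19B (0.967), that of FTL was ETF1 (0.98), that of TFRC was AVPI1 (0.974) and that of SLC39A14 was TRPV2 (0.98). SLC40A1 was nearest to MLLT3 (0.969), followed by ENTPD1 and NPNT (both 0.964). For STEAP3 it was SLC41A2 (0.951), with ATP6V0D2, a gene of the vacuolar proton pump, at 0.909. Among the iron genes, FTL had an r of 0.96 with TFRC, 0.95 with FTH1 and -0.87 with SLC40A1, whereas SLC11A2 lay between -0.26 and 0.51 with all others.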
